A study of Mus musculus with 2 samples.

Results

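The 3 Nr4a receptor genes and 7 further immediate early genes were followed in the inguinal fat pad, a white adipose depot under the skin of the groin. The 10 genes were taken by name (Nr4a1, Nr4a2, Nr4a3, Fos, Fosb, Jun, Junb, Egr1, Ier2 and Dusp1), and each was found on 1 probe set, among 19938 named genes in all. Male C57BL/6J littermates either lacked both uncoupling protein 1 and apolipoprotein E (Ucp1-/-;ApoE-/-, labelled DKO) or lacked apolipoprotein E alone (ApoE-/-, labelled ApoE-KO). Both groups therefore carried the ApoE disruption, and animals with intact ApoE were not analysed here. They were kept at 23 °C and given a high-fat diet for 9 weeks, beginning when they were 9 weeks old. RNA of 3 mice per genotype was mixed and put on 1 Affymetrix whole-transcript array, so that each genotype was represented by a single array of a pool. No spread between mice or between arrays could be measured, no test was possible, and each difference below is a description of these 2 arrays.

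Immediate early genes are switched on by signals that reach the cell surface, without the need for new protein to be made first. Nr4a receptors are orphan nuclear receptors whose activity is set mainly by how much of them is made, and in fat their genes respond to adrenergic stimulation through cAMP and the transcription factor CREB. Fos, Jun and Egr genes respond to growth factors and stress through MAP kinases and serum response factor. Cutting, warming or dissociating a tissue raises immediate early genes as well, and the Nr4a genes are counted among them here. These routes need not be exclusive to a family: the stretch before Fos, printed below, also holds matches to the core of the cAMP response element. Whether handling or adrenergic stimulation contributed to any difference below was not tested. In bulk tissue, fewer cells of a type and less RNA per cell cannot be told apart, and this holds for every value below.

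Differences are given as log2 intensity of the DKO-labelled minus the ApoE-KO-labelled array, so that a positive value means higher in the DKO-labelled one. The targeted genes were examined before the members. Ucp1 had an intensity of 2230 in the DKO-labelled array and 219 in the ApoE-KO-labelled array, a log2 difference of 3.35, which goes against the label if its probe set reads the deleted part, whose position relative to the probes was not known here. Arrays are therefore named by their labels, and every direction rests on those labels. Apoe, disrupted in both genotypes and likewise read by probes of unknown position, had intensities of 502 in the DKO-labelled array and 589 in the ApoE-KO-labelled array. An expression floor was set at the median of the mean log2 intensity of named probe sets, an intensity of 196.9, which is a working limit and not a detection call, and 9891 genes lay on or above it. Intensities of different probe sets are not compared with one another, because probes differ in brightness.

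The stretches of DNA just before the 3 Nr4a genes had a shared feature, and they are shown with those of Dusp1, the member with the second-largest difference, and of Fos, the best-known member of the other family. Of the 10 genes, 8 were found in RefSeq's promoter table (GRCm38.p6), Egr1 and Ier2 being the exceptions. The 250 bases before the annotated start were searched on both strands and are printed 5′ to 3′ on the gene's own strand. Capitals mark matches to the core of the cAMP response element, TGACG, which reads CGTCA where it lies on the opposite strand, and to the full element, TGACGTCA, which contains the core on both strands.
Nr4a1, chr15:101266596-101266845, plus strand: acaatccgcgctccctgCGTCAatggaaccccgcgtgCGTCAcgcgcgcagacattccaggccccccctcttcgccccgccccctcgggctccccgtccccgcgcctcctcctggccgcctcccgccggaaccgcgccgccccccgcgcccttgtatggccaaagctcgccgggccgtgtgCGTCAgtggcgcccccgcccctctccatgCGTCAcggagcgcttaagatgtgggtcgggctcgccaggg
Nr4a2, chr2:57124004-57124253, minus strand: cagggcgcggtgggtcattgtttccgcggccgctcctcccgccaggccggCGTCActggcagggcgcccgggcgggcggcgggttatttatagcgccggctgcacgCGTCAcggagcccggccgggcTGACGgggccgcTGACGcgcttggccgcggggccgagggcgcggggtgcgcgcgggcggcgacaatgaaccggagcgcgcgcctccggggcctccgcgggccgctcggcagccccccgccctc
Nr4a3, chr4:48045055-48045304, plus strand: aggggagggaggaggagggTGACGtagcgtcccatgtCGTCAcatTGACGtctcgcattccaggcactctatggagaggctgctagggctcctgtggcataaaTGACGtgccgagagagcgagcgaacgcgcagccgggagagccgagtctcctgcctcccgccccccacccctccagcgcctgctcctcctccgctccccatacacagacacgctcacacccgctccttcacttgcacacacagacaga
Dusp1, chr17:26508473-26508722, minus strand: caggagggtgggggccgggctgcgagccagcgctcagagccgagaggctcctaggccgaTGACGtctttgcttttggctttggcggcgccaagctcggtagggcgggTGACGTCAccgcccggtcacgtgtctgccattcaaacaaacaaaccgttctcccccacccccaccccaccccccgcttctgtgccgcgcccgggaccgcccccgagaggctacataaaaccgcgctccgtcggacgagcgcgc
Fos, chr12:85473640-85473889, plus strand: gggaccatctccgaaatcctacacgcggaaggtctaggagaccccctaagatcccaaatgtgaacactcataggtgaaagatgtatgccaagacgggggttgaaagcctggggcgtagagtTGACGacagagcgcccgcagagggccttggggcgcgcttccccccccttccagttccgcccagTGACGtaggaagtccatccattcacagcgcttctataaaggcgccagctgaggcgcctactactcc

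Each of the 3 Nr4a stretches held 4 core matches, whereas Dusp1 held 3, Fos 2, Fosb and Junb 1 each, and Jun 0. At least 1 core match was present in 17.8% of the 32851 promoter stretches in the table, at least 3 in 0.688% and at least 4 in 0.137% (45 stretches). The full element was found before Dusp1 alone among the 8 genes and in 1.55% of all stretches. Within these 250 bases, none of the 8 held the Nr4a response element AAAGGTCA (1.34% of all stretches) or the AP-1 site TGANTCA (6.75%). The same held for the CArG box, the letters recognised by serum response factor, searched as CCWWWWWWGG where W is A or T (1.47%). Only exact matches were counted, so stretches 1 letter away, such as ccttgtatgg before Nr4a1, were left out. Sequence further upstream was not searched, so sites there, as before Fos, would be missed, and Egr1 and Ier2 could not be searched. Bases G and C made up 74.4% of the Nr4a1 stretch, 80.0% of that of Nr4a2 and 63.6% of that of Nr4a3, against a median of 52.4% over all stretches, and the core itself contains the pair CG. A match is a run of letters and not a measured binding site.

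**Figure D1:**
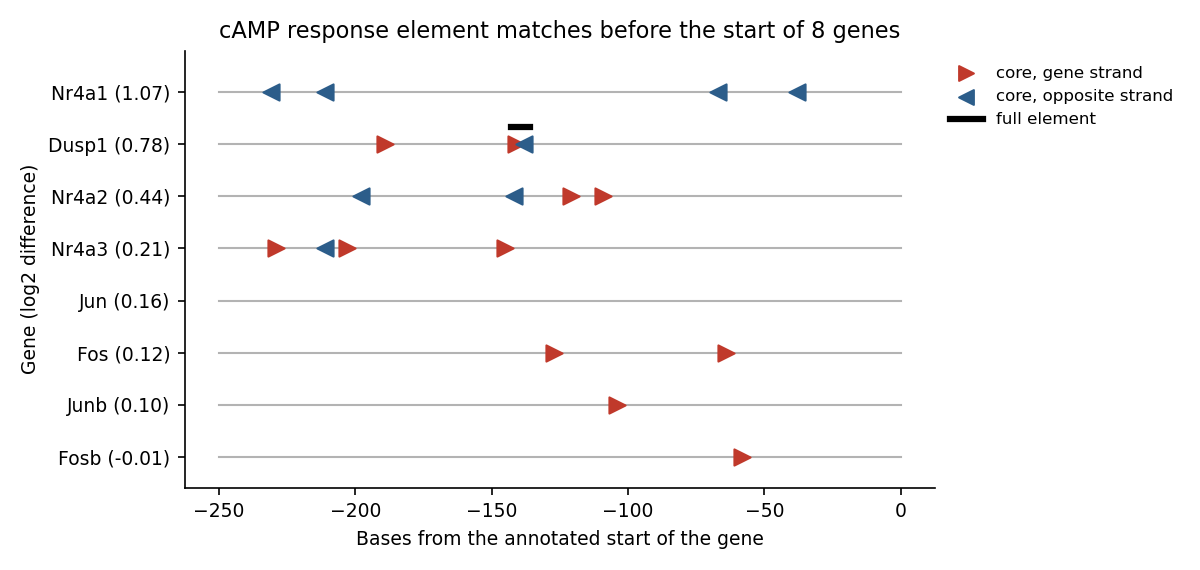
Matches to the cAMP response element before 8 of the genes, in bases from the annotated start, with genes ordered by the log2 difference given in brackets. Triangles are core matches on the gene's strand (red, pointing right) or the opposite strand (blue, pointing left), and the black bar is the full element. The 3 Nr4a genes have 4 triangles each and Jun has none.

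The number of core matches was set beside the differences of all measured genes, as a description. Of the 15563 measured genes with a promoter in the table, 37 had at least 4 core matches, and 19 of these were higher in the DKO-labelled array, at a median difference of 0.00 on the log2 scale. Apart from the 3 Nr4a genes, 16 of 34 were higher. Genes with 0 matches were higher in 46.2% of cases, those with 1 in 49.5%, those with 2 in 52.7% and those with 3 in 51.1%. These groups also differed in how many genes lay above the floor. The numbers were 5474 of 11812 with 0 matches, 1809 of 2827 with 1, 510 of 754 with 2 and 99 of 133 with 3. Of all named genes, 48.2% of those above the floor were higher and 44.6% of those below it. Shares by core matches were not computed under other scalings. Differences in the group with at least 4 matches lay between -0.41 and 1.31. Of its 32 genes with intensities above the expression floor, 3 were at least 2-fold higher (9.38%). Above the floor, this share was 2.80% of the genes with 0 matches, 2.76% with 1, 3.53% with 2 and 2.02% with 3. The 3 genes were Nr4a1, Coq10b (1.31) of the coenzyme Q pathway and Ogdh (1.04) of the tricarboxylic acid cycle. Since Nr4a1 is itself a member, the 9.38% is not separate from the members' own values.

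Among the Nr4a receptors, Nr4a1 stood out by the size of its difference. Nr4a1, the most widely studied receptor of the family and an inducible regulator of metabolism in muscle and fat, had an intensity of 853 in the DKO-labelled array and 406 in the ApoE-KO-labelled array. Both values lay above the floor, and the DKO-labelled array was 2.10-fold higher (log2 difference 1.07). Nr4a2, known for its part in the development of dopamine neurons, had an intensity of 175 in the DKO-labelled array and 129 in the ApoE-KO-labelled array. This is a log2 difference of 0.44 (1.35-fold), with both values under the floor. Nr4a3, a further receptor of the family induced by adrenergic agonists in muscle, had intensities of 142 in the DKO-labelled array and 123 in the ApoE-KO-labelled array, a log2 difference of 0.21 (1.16-fold), again with both under the floor. All 3 receptors were thus higher in the DKO-labelled array, Nr4a2 and Nr4a3 at intensities under the floor, with no detection call to say whether they were above background.

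**Figure D2:**
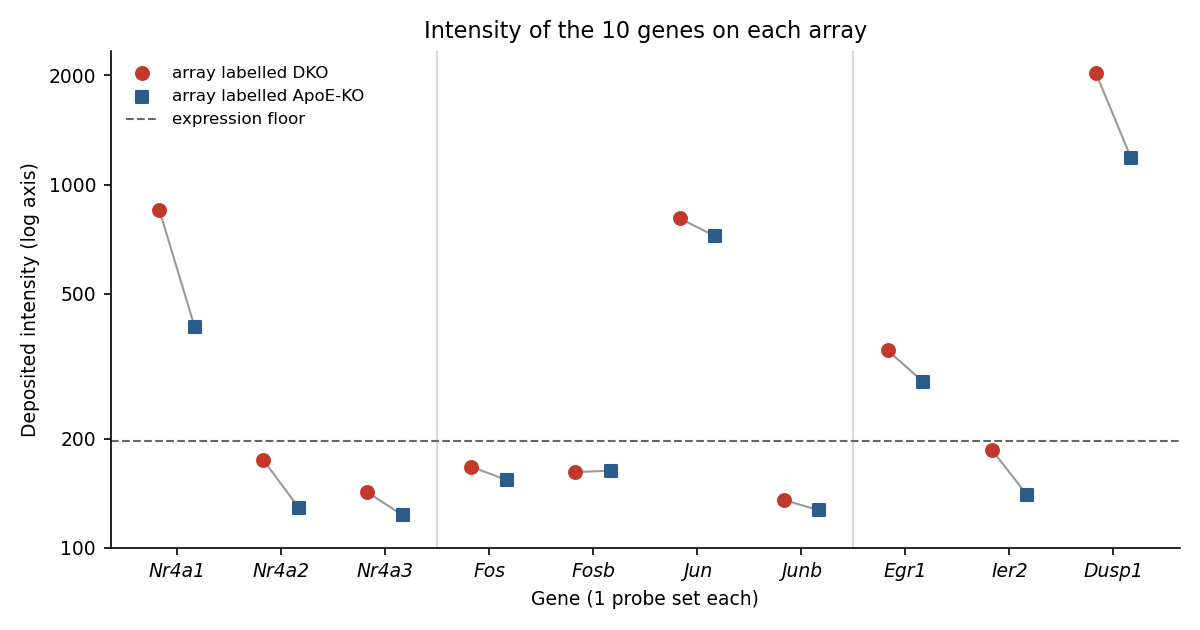
Deposited intensity of the 10 genes (log axis), with the DKO-labelled array as a red circle to the left of the ApoE-KO-labelled array as a blue square, 1 array each, joined by a grey line. The dashed line is the expression floor of 196.9. Nr4a1, Jun, Egr1 and Dusp1 lie above it on both arrays, and the steepest line is that of Nr4a1 (853 against 406).

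The Fos and Jun genes, which encode the subunits of the AP-1 transcription factor, differed little between the arrays. Jun, the partner that can bind DNA as a pair with itself or with Fos, had an intensity of 807 in the DKO-labelled array and 722 in the ApoE-KO-labelled array. It was the 1 gene of the 4 above the floor, and its log2 difference was 0.16 (1.12-fold). Fos, the classic immediate early gene, had intensities of 167 in the DKO-labelled array and 154 in the ApoE-KO-labelled array (0.12). Fosb, a relative of Fos, had 162 in the DKO-labelled array and 163 in the ApoE-KO-labelled array (-0.01), and was the only 1 of the 10 genes that was lower in the DKO-labelled array. Its sign turned under quantile normalization, median centring and loess, each of which gave 0.04. Junb, a relative of Jun, had 136 in the DKO-labelled array and 127 in the ApoE-KO-labelled array (0.10). Fos, Fosb and Junb lay under the floor on both arrays.

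Of the remaining members, Dusp1 had the largest difference. Dusp1, a phosphatase that switches off MAP kinases and is itself induced by them, by cAMP and by glucocorticoids, had an intensity of 2031 in the DKO-labelled array and 1183 in the ApoE-KO-labelled array. The log2 difference of 0.78 corresponds to 1.72-fold, with both values well above the floor. Egr1, a zinc-finger transcription factor, had an intensity of 350 in the DKO-labelled array and 287 in the ApoE-KO-labelled array (0.29, or 1.22-fold). Ier2, a nuclear early response protein, had 186 in the DKO-labelled array and 140 in the ApoE-KO-labelled array (0.41, or 1.33-fold), both under the floor. All 3 were higher in the DKO-labelled array, by less than 2-fold.

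Read against the genes on the same side of the floor, Nr4a1, Nr4a2, Ier2 and Dusp1 lay on the upper side and the other members nearer the middle. Of the 4 members above the floor, 1 was at least 2-fold higher in the DKO-labelled array (Nr4a1) and 0 at least 2-fold lower, where 2.79% of the 9891 genes above the floor were at least 2-fold higher and 0.698% at least 2-fold lower. At 1.5-fold, 2 of the 4 were higher (Nr4a1 and Dusp1) and 0 lower, against 7.57% and 3.73% of these genes. A difference at least as high as that of Nr4a1 was shown by 234 genes above the floor (2.37%), and one at least as high as that of Dusp1 by 475 (4.80%). For Egr1 the share was 18.8% and for Jun 28.6%. Among the 10047 genes under the floor, a difference at least as high as that of Nr4a2 was shown by 2.88%, of Ier2 by 3.28%, of Nr4a3 by 13.2% and of Fos by 23.3%.

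By direction alone, 9 of the 10 members were higher in the DKO-labelled array, where 46.4% of all named genes were, and 10 of 10 under quantile normalization, median centring and loess. The count was 4 of 4 above the floor (48.2% of genes there) and 5 of 6 below it (44.6%). The share of all genes that were higher depended on scaling and was 51.3% under quantile normalization, 56.2% with median centring and 52.5% with loess. Once values below the floor were set to the floor, 4 of the 10 members were higher and 0 lower. The 6 members below the floor were then tied at 0, and 24.7% of all named genes were higher. Immediate early genes are induced together, so these members are not independent of one another. The median difference of the 10 members was 0.25, beside -0.01 for all named genes, and the middle 90% of differences lay between -0.52 and 0.76 above the floor and between -0.38 and 0.36 below it.

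**Figure D3:**
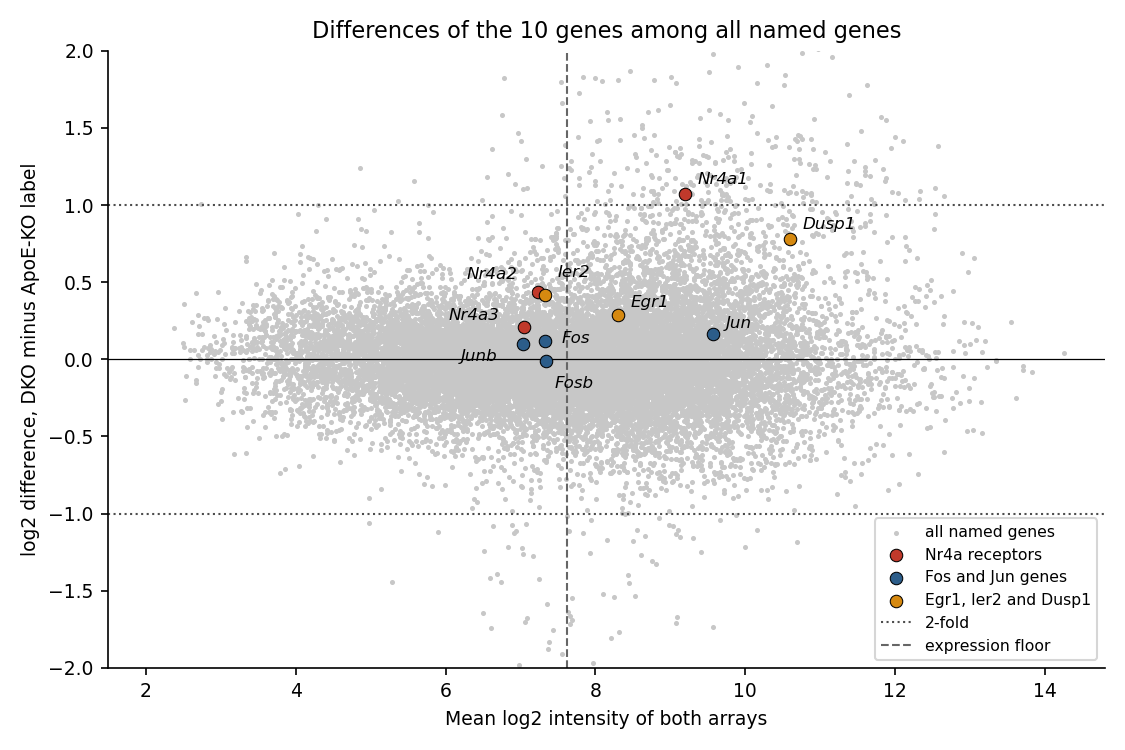
Log2 difference, DKO-labelled minus ApoE-KO-labelled array, against the mean log2 intensity of both arrays for all 19938 named genes (grey) and the 10 members (coloured by role). Dotted lines mark 2-fold, the dashed line marks the floor, and 62 genes with differences beyond 2 in either direction lie outside the axis. Nr4a1 (1.07) lies above the 2-fold line, Dusp1 (0.78) below it, and the Fos and Jun genes close to 0.

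Set against each other, the Nr4a receptors had a median difference of 0.44 and the 7 other members one of 0.16, a gap of 0.28. The ranges overlapped, since the Nr4a values ran from 0.21 to 1.07 and those of the other 7 from -0.01 to 0.78, and Dusp1, Ier2 and Egr1 lay within the Nr4a range. The gap came to 0 when intensities below the floor were set to the floor, since both medians were then 0. Among the 4 members above the floor, the log2 difference of Nr4a1 exceeded that of Jun by 0.91, that of Egr1 by 0.79 and that of Dusp1 by 0.29.

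Further genes of the early response were split in direction. Of 59 relatives of the members, 28 were higher in the DKO-labelled array and 31 lower, with a median difference of -0.01, where 46.4% of all named genes were higher. The balance depended on scaling, with 31 higher under quantile normalization, 32 with loess and 33 with median centring, and medians of 0.02, 0.03 and 0.04. Above the floor lay 47 of them, and 2 were at least 2-fold higher and 0 at least 2-fold lower, beside 2.79% and 0.698% of all genes there. At 1.5-fold, 8 of the 47 were higher and 0 lower, beside 7.57% and 3.73% of all genes there. The split in direction thus lay among the smaller differences. Dusp4, a nuclear MAP kinase phosphatase, had intensities of 608 in the DKO-labelled array and 221 in the ApoE-KO-labelled array (1.46). Plk3, a stress-responsive kinase, had 393 in the DKO-labelled array and 156 in the ApoE-KO-labelled array (1.33, or 0.999 and thus just short of 2-fold once the lower value is raised to the floor). Trib1, a pseudokinase, followed with a difference of 0.94 (553 in the DKO-labelled array and 289 in the ApoE-KO-labelled array), and Ccn1, a secreted matrix protein, with 0.88 (665 in the DKO-labelled array and 362 in the ApoE-KO-labelled array).

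Close relatives of Fos, Jun and Egr1 went both ways. The 12 genes of this kind had a median of -0.03, with 5 higher and 7 lower, where 46.4% of all named genes were higher. The median turned to 0.01 with loess and 0.02 with median centring. Atf3, a stress-induced factor that pairs with Jun, had the largest difference at 0.64 (271 in the DKO-labelled array and 174 in the ApoE-KO-labelled array, or 0.46 once the lower value is raised to the floor). Nab1, a repressor of Egr proteins, stood at 0.16, the AP-1 factor of dendritic cells Batf3 at -0.15 and the Jun relative Jund at -0.08. Under the floor, and named after their values were seen, Egr4 stood at 0.28 and Batf at -0.35. Of all 59 relatives, the lowest differences, also named after they were seen, were those of the NF-kB inhibitor Tnfaip3 (-0.52), the mRNA-decay factors Zfp36 (-0.48) and Zfp36l1 (-0.45), and Klf2 (-0.45).

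Most genes known to respond to cAMP were higher. Of 23 measured genes, 19 were higher in the DKO-labelled array, beside 46.4% of all named genes, and the median stood at 0.32, or 0.13 with values raised to the floor and 0.51 as a mean. Above the floor there were 19, of which 4 passed 2-fold upward, beside 2.79% of all genes there. These were Ucp1 (3.35), the thyroid hormone deiodinase Dio2 (2.97, with 942 in the DKO-labelled array against 121 in the ApoE-KO-labelled array), the coactivator Ppargc1a (1.44, with 660 in the DKO-labelled array against 244 in the ApoE-KO-labelled array) and the G-protein regulator Rgs2 (1.42, with 435 in the DKO-labelled array against 162 in the ApoE-KO-labelled array). Dio2 and Rgs2 lay under the floor in the ApoE-KO-labelled array and stood at 2.26 and 1.14 once raised to it. Of the cAMP targets, 6 are also among the relatives of the members, and they stood at 0.59 (Gadd45g), 0.37 (the repressor Crem), 0.35 (the kinase Sik1), 0.11 (the clock gene Per1), 0.08 (Fosl2) and -0.36 (Gem). Rasd1, a small GTPase that glucocorticoids also induce, was lower (-0.90, also named after its value was seen). Ucp1, Dio2 and Ppargc1a are also markers of brown and beige fat, and of the 11 measured markers of that kind all were higher in the DKO-labelled array, with a summed intensity of 23901 there against 3813 in the ApoE-KO-labelled array. Ucp1, a targeted gene whose probe set may read the deleted part, is counted in both lists. Of these sums, 2230 and 219 are its own. The part of brown and beige fat cells in the difference of Nr4a1 was not tested.

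**Figure D4:**
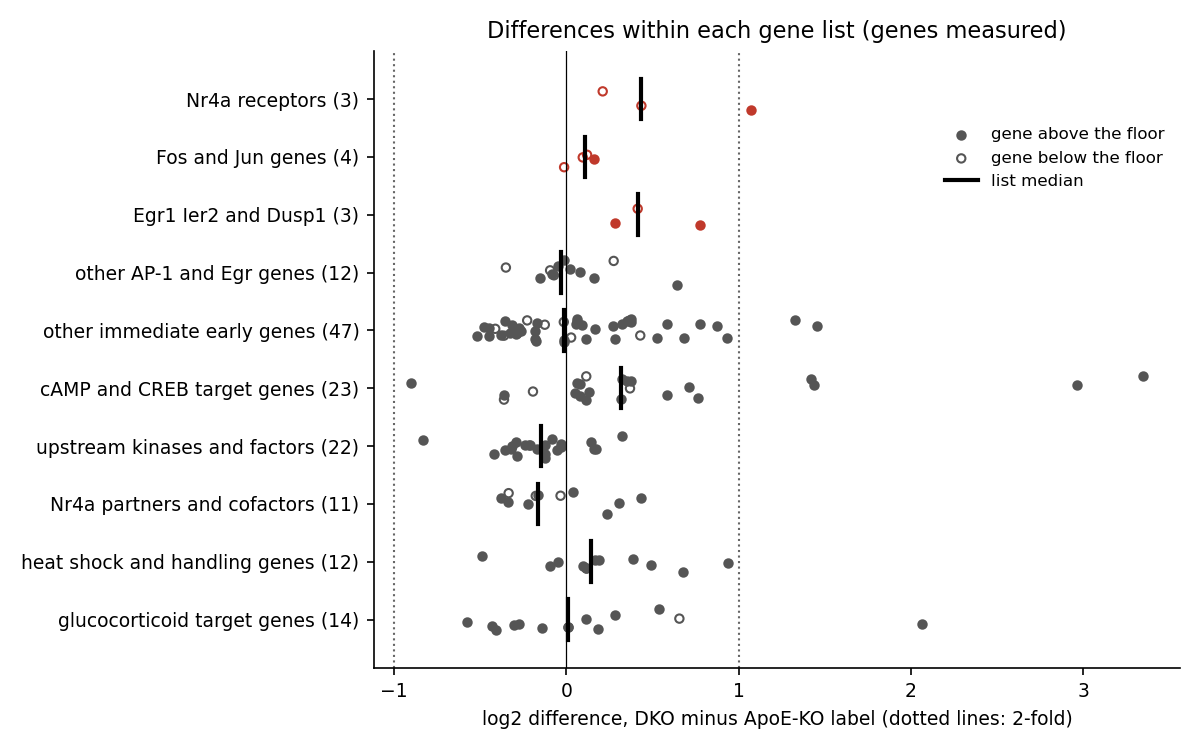
Log2 difference, DKO-labelled minus ApoE-KO-labelled array, of each gene in 10 lists, with filled points above the floor, open points below it, and a black bar at the list's median. The members are in red, and the number of genes measured is in brackets. The medians of the Nr4a receptors (0.44), of Egr1, Ier2 and Dusp1 (0.41) and of the cAMP targets (0.32) lie to the right of 0, and that of the other immediate early genes (-0.01, or up to 0.04 under other scalings) lies at 0.

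Genes for the factors and kinases that act on the members were mostly lower by small amounts. Of 22 measured, 4 were higher and 18 lower in the DKO-labelled array, with a median of -0.15, where 46.4% of all named genes were higher. All lay above the floor, and 0 passed 2-fold, beside 2.79% (higher) and 0.698% (lower) of all genes there. Mef2c, a transcription factor of muscle and lymphocytes from a family known to act on the Nr4a1 promoter in T cells, had the largest difference (-0.83, 352 in the DKO-labelled array and 627 in the ApoE-KO-labelled array). The CREB coactivator gene Crtc3 stood at -0.42, the kinase gene Rps6ka3 at -0.36 and the kinase gene Mapk8 at 0.32, and, named after their values were seen, Creb1 at -0.29 and Srf at -0.03. Of the 29 genes listed, 7 had no probe set with a single gene name here. Among the partners and cofactors of the Nr4a receptors, 4 of 11 were higher (46.4% of all named genes were), with a median of -0.16. Only 8 of them lay above the floor, and 0 passed 2-fold, beside 2.79% (higher) and 0.698% (lower) of all genes there. Rxrg, of the retinoid X receptors with which Nr4a1 and Nr4a2 can pair, stood at 0.31, the orphan receptor genes Nr2f6 at 0.44 and Nr2f2 at -0.34, and the coactivator gene Ncoa3 at -0.38.

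Chaperone and glucocorticoid-responsive genes give further values on the state of the tissue. Of 12 chaperone genes, 9 were higher in the DKO-labelled array, beside 46.4% of all named genes, with a median of 0.14. All 12 lay above the floor and 0 passed 2-fold, beside 2.79% (higher) and 0.698% (lower) of all genes there. The largest differences were those of the mitochondrial chaperonins Hspd1 (0.94, or 1.01 when its 2 probe sets are averaged) and Hspe1 (0.68), of the co-chaperone Bag3 (0.49) and of Cryab (-0.49), a small chaperone abundant in muscle. The other 8 lay between -0.09 (Hspa5) and 0.39 (Hspb1), with the heat-inducible Hspa1a, named after its value was seen, at 0.11. Of 14 glucocorticoid-responsive genes, 8 were higher, again beside 46.4% of all named genes, with a median of 0.01 that turned to -0.0045 under quantile normalization. Of the 13 above the floor, 1 was at least 2-fold higher and 0 at least 2-fold lower, beside 2.79% and 0.698% of all genes there. The 1 gene was Pdk4, a kinase that restrains pyruvate oxidation and is also a target of fatty acid signalling. Its difference was 2.07 (5781 in the DKO-labelled array and 1379 in the ApoE-KO-labelled array). Zbtb16 (-0.58), Cebpd (-0.43) and, named after its value was seen, Fkbp5 (-0.41) were lower, and Mt2 was higher (0.54).

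Markers of other cells that can express these genes moved between the arrays as well. Beside the counts that follow, 46.4% of all named genes were higher in the DKO-labelled array. All 15 skeletal muscle markers were lower in the DKO-labelled array, with intensities of 59.7 to 376 there and 437 to 5998 in the ApoE-KO-labelled array, and sums of 2519 in the DKO-labelled array and 34539 in the ApoE-KO-labelled array. All 8 measured B cell and lymph node markers were lower (sum 3394 in the DKO-labelled array, 6747 in the ApoE-KO-labelled array). The same held for all 8 macrophage markers (7381 DKO-labelled, 10813 ApoE-KO-labelled) and for all 7 measured fibroblast and progenitor markers (15777 DKO-labelled, 23265 ApoE-KO-labelled). Of 8 endothelial markers, 5 were higher and 3 lower (8257 DKO-labelled, 7948 ApoE-KO-labelled). Of 9 adipocyte markers, 7 were higher and 2 lower, or 4 and 5 under quantile normalization and 8 and 1 with loess or median centring (44899.9 DKO-labelled, 42835 ApoE-KO-labelled). All 9 lay above the floor on both arrays, the lowest intensity being 1527 in the DKO-labelled array and 1338 in the ApoE-KO-labelled array. The median muscle marker had an intensity of 156 in the DKO-labelled array, under the floor of 196.9, and 1761 in the ApoE-KO-labelled array. No detection call said whether muscle markers under the floor were above background. All measured B cell and macrophage markers lay above the floor on both arrays. The part of these cells in the differences of Nr4a1, Dusp1 and the other members was not tested.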

How the data were processed

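The authors deposited 1 linear intensity per probe set for each of 2 arrays; per the labels' protocols, Trizol RNA was labelled with biotin for Affymetrix whole-transcript arrays. For background correction, probe summary and array scaling, the method was not given in the sources used here. Differences are log2 intensities, without pseudocount, of the DKO-labelled minus the ApoE-KO-labelled array. Of 35557 probe sets, 21789 had 1 gene symbol in the platform annotation and 1621 had several and were left out. Where a gene had more than 1 (999 genes), the brightest was used. A single array per genotype allowed no test, so differences were described by size (2-fold, or 1.5-fold) above a floor at the median log2 intensity (7.62). The members and the 14 other gene lists were chosen with earlier results of these data known. Text names all members, the 4 genes with the largest differences above the floor in each list discussed as biology, and any past 2-fold; marker lists are given as sums. The planned ranking of genes by likeness to Nr4a1 is not given, since it sets intensities of different probe sets against each other. The size rule was run on simulated data only as a check of the code. The planted changes were larger than the threshold and the small noise was chosen, not measured. It therefore does not show how the rule performs on these arrays. Alternatives were quantile normalization, median centring, loess (span 0.4), an offset of 50, mean of probe sets, values raised to the floor, other floors, other thresholds, and means. Promoter sequences are from RefSeq (GRCm38.p6). Python 3.11.15, pandas 2.3.3 and statsmodels 0.14.6 were used.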

Additional observations from a re-analysis of the deposited data

How the results depend on the processing

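No paired analysis was possible because each genotype has 1 array. With no replicate spread, a log2 value was taken as moved when it shifted by over 0.1 or crossed 2-fold, and a count when it shifted by over 1.5 times. Nr4a1 lay between 0.99 and 1.12 and Dusp1 between 0.73 and 0.83 under 6 alternatives. The count of members at least 2-fold higher was 1, and it became 0 with an offset of 50 (Nr4a1 at 0.99), 2 at 1.5-fold and 0 at 3-fold. With an offset of 50, medians were 0.33 for the Nr4a receptors, 2.54 for brown and beige, -2.65 for muscle and -0.98 for B cell markers. With values below the floor set to the floor, the Nr4a median, the Fos and Jun median, the median of Nr4a partners and the gap between the Nr4a receptors and the other members were all 0. The differences of Nr4a2, Nr4a3, Fos and Ier2 also moved to 0 in that setting. The same setting gave 0.29 for Egr1, Ier2 and Dusp1, 0.13 for cAMP targets and 2.36 for brown and beige markers. With only members above the floor, medians were 1.07 (Nr4a receptors, Nr4a1 alone), 0.53 (Egr1 and Dusp1), -0.062 (Nr4a partners) and -3.46 (muscle). Means in place of medians gave 0.57 (Nr4a receptors), 0.51 (cAMP targets), -0.056 (Nr4a partners), 0.12 (glucocorticoid targets), 2.63 (brown and beige), -3.40 (muscle), -0.97 (B cell) and -0.68 (fibroblast and progenitor). The other 114 of 136 list values stayed within these limits. The number of arrays limits precision throughout.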

Other observations

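Whole gene families were read after the values of Dusp4, Dusp1 and the Klf genes had been seen, and are given as descriptions. Of 24 measured genes of the dual-specificity phosphatase family, to which Dusp1 belongs, 18 were higher in the DKO-labelled array and 6 lower, beside 46.4% of all named genes that were higher, with a median log2 difference of 0.16, and 19 were higher under each of 3 other scalings. Above the floor lay 18, of which 4 passed 1.5-fold upward and 0 downward, beside 7.57% and 3.73% of all genes there. Dusp4 (1.46) and Dusp1 (0.78) were followed by Dusp6, a cytosolic phosphatase of ERK (0.68, with intensities of 810 in the DKO-labelled array and 505 in the ApoE-KO-labelled array), and by Dusp10, a phosphatase of p38 and JNK (0.66, 878 in the DKO-labelled array and 554 in the ApoE-KO-labelled array). Dusp7 (-0.22) and Dusp2 (-0.18) were lower.

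The Krüppel-like factor genes, several of which are early response genes, leaned the other way. Of 17 measured, 3 were higher in the DKO-labelled array and 14 lower (4 and 13 under each of 3 other scalings), beside 46.4% of all named genes that were higher. The median was -0.17. Of the 12 above the floor, 0 reached 1.5-fold either way, beside 7.57% (higher) and 3.73% (lower) of all genes there. Klf2, an endothelial and lymphocyte factor, had intensities of 947 in the DKO-labelled array and 1290 in the ApoE-KO-labelled array (-0.45), and Klf15, a metabolic regulator, had 677 in the DKO-labelled array and 837 in the ApoE-KO-labelled array (-0.30). Klf9 (0.19), Klf1 (0.10) and Klf16 (0.05) were the 3 that were higher.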
